A study of Mus musculus with 5 samples.

Results

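Among nicotinic acetylcholine receptor subunit genes, 4 neuronal ones had at least 2-fold less signal in precipitates of the survival of motor neuron protein (SMN). The remaining members, neuronal or muscle-type, differed less, and all of them but Chrnb1 were dim. The 10 genes were taken by name, Chrna3, Chrna4, Chrna5, Chrna7, Chrnb2 and Chrnb4 as the 6 neuronal subunits and Chrna1, Chrnb1, Chrnd and Chrng as the 4 muscle-type subunits. Each had 1 probe set that carries its symbol alone, so 10 of the 28187 probe sets tested, and 10 of the 19937 genes with a probe set of their own, are described. The members were chosen by their signals in this same comparison, because Chrna3 and Chrnb2 stood among its larger differences. The differences of the 10 genes are therefore a description and not evidence. Counts of members past a threshold are given further on only beside the share or count of all probe sets. Chrna3 had the largest negative difference of all 28187 probe sets, a log2 difference of -3.95 (SE 0.40), and Chrnb2, Chrnb4 and Chrna7 lay at least 2-fold lower. Chrna5 and Chrna4 were dim, Chrna4 with equal means in both groups. The muscle-type genes, dim as well except for Chrnb1, ranged from -0.50 to 0.16.

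RNA was recovered by anti-FLAG precipitation from NSC-34 cells, a mouse hybrid line of neuroblastoma and spinal cord motor neurons that is used as a motor neuron model. The 3 FLAG-SMN IP arrays came from cells with a 3XFLAG-tagged full-length SMN construct, and the 2 control IP arrays from cells with no FLAG construct, which measure RNA retained without a tagged protein. Both kinds of cell were differentiated in 1% serum, received doxycycline at 3 µg/ml for 3 days and were exposed, before lysis, to ultraviolet light at 400 mJ/cm2. The labels name neither a clone nor separate cultures behind the replicates, so the spread between arrays may be technical. The promoter of the construct is not given in the sources used here, and input RNA from the lysates was not analysed here. Fewer transcripts in the cells and fewer transcripts retained by the beads cannot be told apart in these values. The number of arrays limits the precision.

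Nicotinic receptors are pentamers of subunits around a cation channel that opens when acetylcholine binds, and they belong to the Cys-loop family with the serotonin type 3, glycine and GABA-A receptors. Alpha subunits carry the main face of the binding site, and beta, gamma, delta and epsilon subunits complete the ring. At the neuromuscular junction the receptor is built from the products of Chrna1, Chrnb1, Chrnd and either Chrng, before birth, or Chrne, in the adult. Receptors of autonomic ganglia hold alpha 3 and beta 4, often with alpha 5, those of brain mostly alpha 4 and beta 2, and alpha 7 forms channels of its own.

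All values are RMA signals on the log2 scale, and a log2 difference is the mean of the FLAG-SMN IP arrays minus that of the control IP arrays. The median signal of all tested probe sets lay between 5.25 and 5.39 on the 5 arrays. Probe sets presumed to be array controls had medians of 4.30 to 4.55, used here as a mark of dim signal. Replicate 1 of FLAG-SMN IP was the array least like its group, with Pearson r of 0.964 and 0.968 to replicates 2 and 3 across probe sets, against 0.989 between those replicates. Members are therefore also given without it, most of them below. The log2 differences of Chrna5, Chrna1, Chrnd and Chrng were then -0.82, -0.07, 0.0 and 0.05. NSC-34 identity markers were uneven: Prph, which encodes a neuronal intermediate filament, lay at 10.37 to 11.52, whereas Chat, which encodes the acetylcholine-synthesising enzyme that defines cholinergic neurons, lay at 4.28 to 4.69, close to the presumed controls. Slc5a7, the choline transporter gene, was at 3.20 to 3.81 and Mnx1, a motor neuron transcription factor gene, at 3.40 to 4.17, and neither of this pair was above the presumed control median on any array. Of the 9 motor neuron markers listed, 5 were above it on all arrays, among them Slc18a3, the vesicular acetylcholine transporter gene, at 5.21 to 5.56. The autonomic transcription factor genes Phox2a (means of 9.15 in FLAG-SMN IP and 9.34 in control IP) and Hand2 (means of 9.60 and 9.61) were bright on all 5.

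The 250 bases before the annotated start are shown for the 4 neuronal genes that lay at least 2-fold lower together and for a pair of muscle-type genes that did not. RNA in a precipitate is not a measure of promoter activity, so the sequences describe the genes only. They are from RefSeq on GRCm38.p6, written 5′ to 3′ on the strand of the gene. Capitals mark matches to GGGCGG on either strand, the GC box bound by Sp1-type factors, and to CAGCTG, an E-box of the kind bound by basic helix-loop-helix factors such as those of muscle.
Chrna3, chr9:55026563-55026812, minus strand: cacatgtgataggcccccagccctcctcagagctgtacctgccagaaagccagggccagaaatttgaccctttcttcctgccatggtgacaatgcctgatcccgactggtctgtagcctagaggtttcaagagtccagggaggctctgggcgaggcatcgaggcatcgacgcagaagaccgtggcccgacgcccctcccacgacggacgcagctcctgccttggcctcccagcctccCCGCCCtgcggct
Chrnb4, chr9:55048545-55048794, minus strand: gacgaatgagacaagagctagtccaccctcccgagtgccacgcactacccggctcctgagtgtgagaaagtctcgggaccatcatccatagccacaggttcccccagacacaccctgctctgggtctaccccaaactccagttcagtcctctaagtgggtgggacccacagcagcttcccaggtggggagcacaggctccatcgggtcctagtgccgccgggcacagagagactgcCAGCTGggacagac
Chrnb2, chr3:89764633-89764882, minus strand: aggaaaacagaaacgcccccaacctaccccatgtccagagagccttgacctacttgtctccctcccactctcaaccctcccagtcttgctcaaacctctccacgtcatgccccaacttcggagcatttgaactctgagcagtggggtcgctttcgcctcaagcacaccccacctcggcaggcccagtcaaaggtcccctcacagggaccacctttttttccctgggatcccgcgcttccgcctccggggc
Chrna7, chr7:63212527-63212776, minus strand: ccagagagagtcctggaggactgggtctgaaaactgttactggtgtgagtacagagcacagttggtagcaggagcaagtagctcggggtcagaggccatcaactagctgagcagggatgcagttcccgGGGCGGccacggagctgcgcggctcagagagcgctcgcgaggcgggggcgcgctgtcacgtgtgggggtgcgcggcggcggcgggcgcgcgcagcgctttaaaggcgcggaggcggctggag
Chrna1, chr2:73580339-73580588, minus strand: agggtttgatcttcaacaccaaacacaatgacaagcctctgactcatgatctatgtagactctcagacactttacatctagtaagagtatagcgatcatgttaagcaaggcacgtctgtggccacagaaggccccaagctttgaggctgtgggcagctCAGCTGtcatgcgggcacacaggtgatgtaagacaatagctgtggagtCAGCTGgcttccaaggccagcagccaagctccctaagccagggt
Chrng, chr1:87205561-87205810, plus strand: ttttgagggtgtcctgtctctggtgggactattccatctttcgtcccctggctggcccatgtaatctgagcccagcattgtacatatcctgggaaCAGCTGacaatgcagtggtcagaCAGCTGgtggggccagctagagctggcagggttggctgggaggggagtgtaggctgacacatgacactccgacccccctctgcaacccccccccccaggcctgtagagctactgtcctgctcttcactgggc

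A table of RefSeq promoters held 9 of the 10 members. Among the sequences above, Chrna3 and Chrna7 held 1 GC box each and no CAGCTG, Chrnb4 held 1 CAGCTG and no GC box, and Chrnb2 held neither. Both Chrna1 and Chrng held 2 copies of CAGCTG and no GC box. Of the members not printed, Chrna4 held 3 GC boxes and Chrnb1, also a muscle-type gene, 4, a pair of them overlapping, with 0 copies of CAGCTG in either, and the Chrna5 table entries, for 2 start sites, held 0 and 4 GC boxes and 0 copies of CAGCTG. No GC box overlapped an E-box in any of these windows. Over all 32851 promoter windows of that length, 32.7% held a GC box and 13.0% held CAGCTG. A match is a string of letters and not a site of binding.

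Chrna3 encodes the alpha 3 subunit of ganglionic receptors. Its signal was 4.42, 5.63 and 5.56 in FLAG-SMN IP replicates 1 to 3 and 8.88 and 9.44 in the control IP arrays. Every FLAG-SMN array was low and both control arrays were high, with a gap of 3.25 between the groups. The means were 5.20 ± 0.68 (SD, n = 3) and 9.16 ± 0.40 (SD, n = 2). The control mean lay above 93.7% of tested probe sets and the FLAG-SMN mean above 48.1%. In FLAG-SMN IP replicate 1 the value was below the presumed control median of that array by 0.03 (-0.03), so the size of the difference is uncertain and no fold is given. Without that replicate the log2 difference was -3.56 (SE 0.24), and under all settings tried it ranged from -4.24 to -3.56.

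Chrnb4 encodes the beta 4 subunit, the usual partner of alpha 3 in ganglia. It had 4.87, 5.75 and 5.64 in FLAG-SMN IP and 6.58 and 6.78 in control IP. The groups did not overlap, FLAG-SMN IP replicate 1 again being the lowest array. The means were 5.42 ± 0.48 (SD, n = 3) and 6.68 ± 0.14 (SD, n = 2), 2.40-fold lower in FLAG-SMN IP (log2 difference -1.26, SE 0.29). Without replicate 1 the difference was -0.99, just under 2-fold.

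Chrna5 encodes an accessory alpha subunit that joins alpha 3 and beta 4 receptors. Its signals were 3.23, 3.42 and 3.62 in FLAG-SMN IP and 3.64 and 5.03 in control IP. The FLAG-SMN arrays lay below both control arrays, but by a gap of only 0.02, and 4 of the 5 arrays were below the presumed control medians. The difference of -0.91 (SE 0.40) rested on control IP replicate 2: without it the value was -0.21, and without control IP replicate 1 it was -1.61. In the RefSeq annotation Chrna5, Chrna3 and Chrnb4 are consecutive protein-coding genes of chromosome 9, and the annotated spans of Chrna5 and Chrna3 overlap. Where the probes lie is not given, so whether the Chrna5 and Chrna3 probe sets read shared sequence is not known.

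Chrnb2 encodes the beta 2 subunit, common in receptors of the brain. Its signals were 5.93, 5.61 and 5.54 in FLAG-SMN IP and 7.57 and 7.78 in control IP. All 3 FLAG-SMN arrays were lower than both control arrays, by a gap of 1.65, and here replicate 1 was the highest of its group. The means of 5.69 ± 0.21 (SD, n = 3) and 7.68 ± 0.15 (SD, n = 2) differed 3.97-fold (log2 difference -1.99, SE 0.20), the 29th most negative of all probe sets. Leaving out FLAG-SMN IP replicate 1 gave -2.11.

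Chrna7 encodes the subunit of homomeric alpha 7 receptors, which are highly permeable to calcium. Values of 5.39, 5.73 and 5.69 in FLAG-SMN IP stood against 6.77 and 6.94 in control IP. The groups were apart by 1.04, and the spread within each was small. Means of 5.60 ± 0.18 (SD, n = 3) and 6.85 ± 0.12 (SD, n = 2) gave a 2.38-fold lower signal (log2 difference -1.25, SE 0.19), and -1.14 without FLAG-SMN IP replicate 1.

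Chrna4 encodes the alpha 4 subunit that pairs with beta 2 in the brain. It differed from the other neuronal members, at 5.34, 4.69 and 4.69 in FLAG-SMN IP and 5.17 and 4.65 in control IP. The groups overlapped, with replicate 1 the higher array in each, and both means were 4.91. No array was more than 0.89 above its presumed control median, so here too there was little room to measure a lower value. Its sign was not settled: the difference was -0.21 without FLAG-SMN IP replicate 1, -0.26 without control IP replicate 2 and 0.26 without control IP replicate 1.

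**Figure D1:**
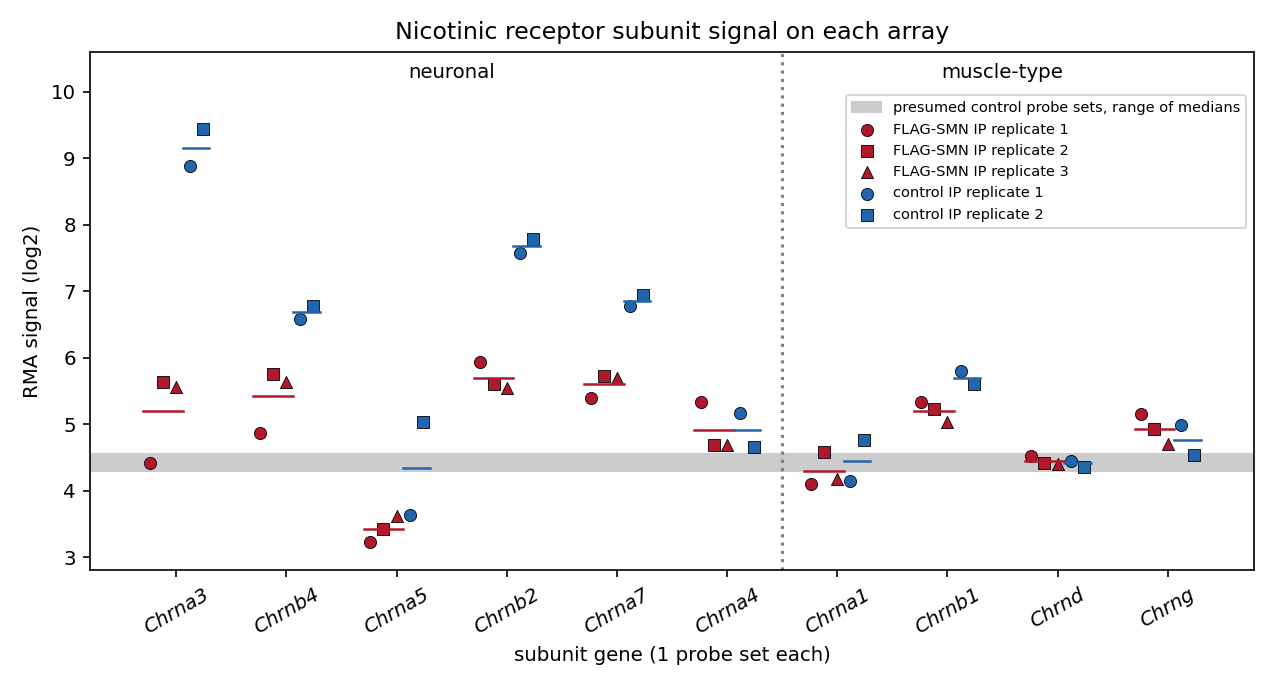
RMA signal (log2, vertical axis) of the 10 subunit genes on each array, with FLAG-SMN IP in red, control IP in blue, marker shape giving the replicate number and short lines the group means; the grey band spans the medians of presumed control probe sets, 4.30 to 4.55. Chrna3, Chrnb4, Chrnb2 and Chrna7 show the control arrays well above the FLAG-SMN arrays. The muscle-type genes other than Chrnb1 lie close to the band in both groups.

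Apart from Chrnb1, the muscle-type genes were dim in both kinds of precipitate. With Chrnb1 included, they lay at 4.10 to 5.33 in FLAG-SMN IP and 4.14 to 5.80 in control IP. None was more than 1.31 above the presumed control median of its array, so there was little room to measure a difference of the size found at Chrna3. Chrna1 encodes the muscle alpha subunit and had 4.10, 4.58 and 4.18 in FLAG-SMN IP and 4.14 and 4.76 in control IP. These overlapped (log2 difference -0.16, SE 0.26). Without control IP replicate 2 the difference was 0.15. Chrnd, the delta subunit gene, was nearly equal on all arrays, at 4.52, 4.42 and 4.40 in FLAG-SMN IP and 4.45 and 4.36 in control IP (difference 0.04, SE 0.17). Chrng encodes the fetal gamma subunit and lies next to Chrnd on chromosome 1. It had 5.15, 4.92 and 4.70 in FLAG-SMN IP and 4.98 and 4.54 in control IP, again overlapping (0.16, SE 0.23, and -0.06 without control IP replicate 2).

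Chrnb1, which encodes the muscle beta subunit, was the exception among them. Its signals were 5.33, 5.23 and 5.04 in FLAG-SMN IP and 5.80 and 5.60 in control IP. All FLAG-SMN arrays were below both control arrays by a gap of 0.27, and all 5 arrays were above the presumed control medians. The means of 5.20 ± 0.15 (SD, n = 3) and 5.70 ± 0.14 (SD, n = 2) differed 1.41-fold (log2 difference -0.50, SE 0.19), and by -0.57 without FLAG-SMN IP replicate 1. Among muscle markers, Myod1 and Myog, which encode myogenic transcription factors, lay at 4.16 to 4.76 and 4.40 to 5.11. Myh3 and Tnnc1 were brighter, at 7.87 to 8.44 and 6.94 to 8.02, and 6 of the 10 markers were above the presumed control median on every array. Summed over the 10, the log2 signals were 55.30 to 57.51 in FLAG-SMN IP and 52.72 to 56.46 in control IP. No muscle marker passed in limma. At an unadjusted p under 0.05, 1 of 10 was higher and 0 were lower, against 4.14% and 6.31% of all probe sets. The higher marker was Mylpf (log2 difference 1.04, SE 0.25, limma adjusted p = 0.223). The part of the muscle markers in the subunit values was not tested.

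As a group, 5 of 6 neuronal genes had negative differences and groups that did not overlap, with a median of -1.26, and 4 of the 6 were at least 2-fold lower. The muscle-type genes had a median of -0.06, with 1 of 4 not overlapping and 0 at least 2-fold apart. Over all tested probe sets the median was 0.018, groups that did not overlap with FLAG-SMN IP lower made up 13.2%, and probe sets at least 2-fold lower 1.73% (1.42% were at least 2-fold higher). The neuronal median minus the muscle-type median was -1.19, and lay between -1.33 and -1.03 under the settings tried. In limma 0 of the 10 genes passed an adjusted p of 0.05, while 5 had an unadjusted p under 0.05. Of all probe sets 0.0177% passed as lower and 0.0142% as higher, and at the unadjusted level 6.31% were lower and 4.14% higher. With FLAG-SMN IP replicate 1 left out, 3 of the 10 passed (Chrna3, Chrnb2 and Chrna7), where 0.678% of all probe sets passed as lower; with any other array left out 0 of the 10 passed and 0 probe sets passed in all. Among settings that kept all 5 arrays, centring on brighter probe sets had Chrna3 and Chrnb2 passing, where 25 probe sets passed as lower. Chrna3 alone passed under trend and robust variance, where 8 did. It alone also passed among brighter probe sets only, where 5 did and 5 of the 10 genes were kept. Cyclic loess scaling, the replicate block and the whole table had 0 of the 10 and 0 probe sets passing. As the members were chosen with this comparison known, nothing is read from these shares and counts.

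**Figure D2:**
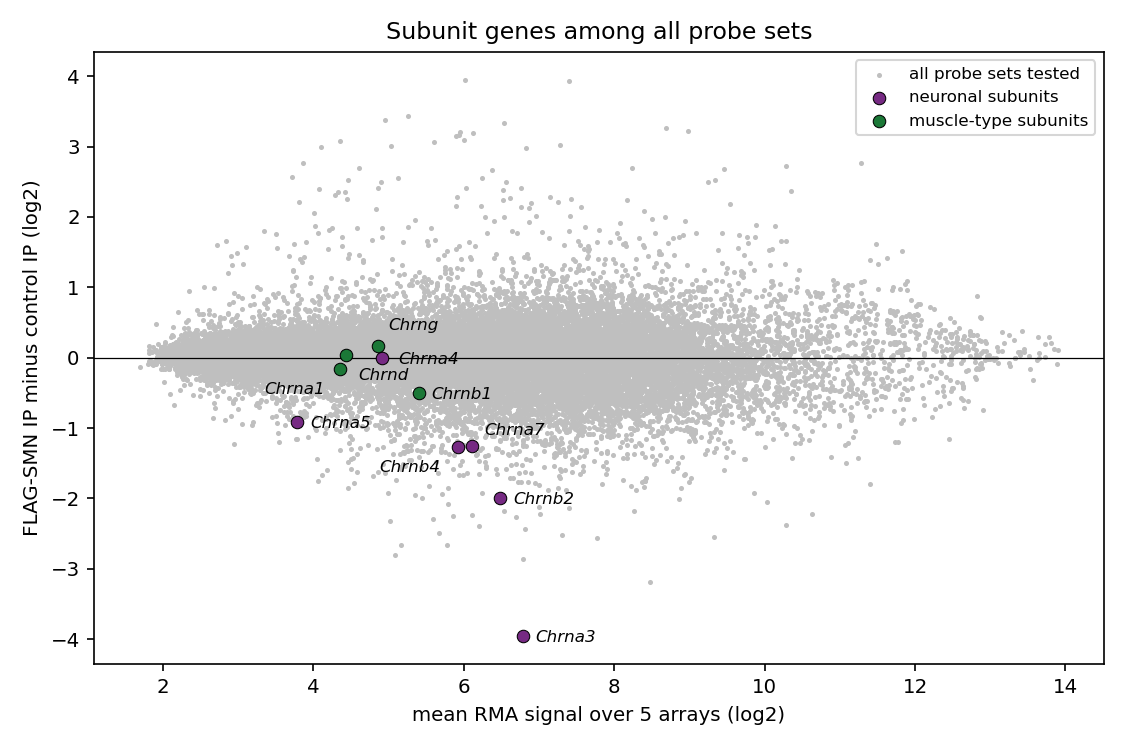
Log2 difference (FLAG-SMN IP minus control IP, vertical axis) against the mean signal over the 5 arrays (log2, horizontal axis) for the 28187 probe sets in grey, with neuronal subunits in purple and muscle-type subunits in green. Chrna3 is the lowest point of the plot at -3.95, and the muscle-type genes lie within the grey mass.

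The remaining 6 nicotinic subunit genes were measured as well, and none had a difference below -0.01. Chrna2 and Chrna6 encode neuronal alpha subunits, Chrnb3 an accessory beta subunit, Chrna9 and Chrna10 the subunits of hair cell receptors, and Chrne the adult muscle epsilon subunit. Their signals were 3.41 to 4.96 in FLAG-SMN IP and 3.29 to 4.79 in control IP. The groups overlapped at all 6, and the differences ran from -0.01 for Chrna2 to 0.17 for Chrna9 (median 0.12). None of the 6 passed in limma, and 0 had an unadjusted p under 0.05. Without control IP replicate 1 the difference of Chrna2 was 0.32, and without control IP replicate 2 it was -0.33. None of the 6 was above the presumed control medians on all arrays.

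**Figure D3:**
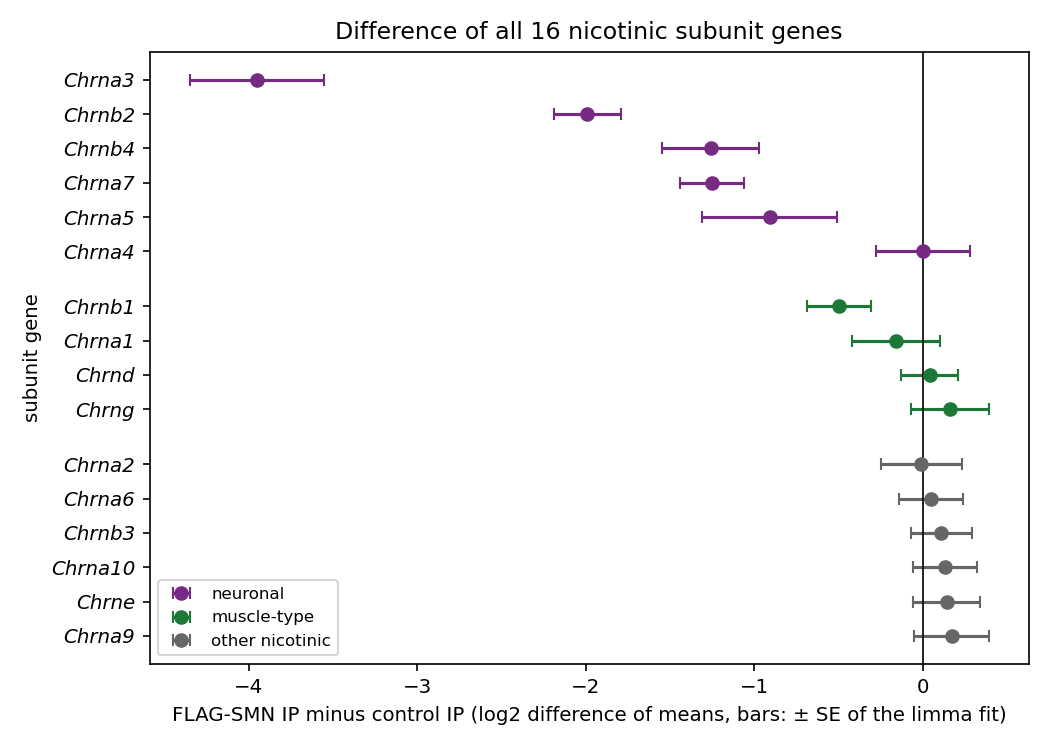
Log2 difference of the group means (FLAG-SMN IP minus control IP, horizontal axis) with its SE from the limma fit as bars, for the 16 nicotinic subunit genes. Chrna3, Chrnb2, Chrnb4 and Chrna7 are at -1.25 or lower, whereas the 6 other nicotinic genes lie from -0.01 to 0.17.

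Genes that act on nicotinic receptors showed smaller differences. Of 10 measured genes for receptor assembly and trafficking, 4 had negative and 6 positive differences (median 0.04), and 0 passed in limma in either direction or at an unadjusted p under 0.05. Ric3 encodes a chaperone of nicotinic receptors and was at 6.53, 5.24 and 5.77 in FLAG-SMN IP and 6.22 and 6.83 in control IP, which overlap (log2 difference -0.68, SE 0.39, limma adjusted p = 0.658). The general chaperone gene of the endoplasmic reticulum Canx gave -0.31 (limma adjusted p = 0.653). The Ly6 family, whose members bind nicotinic receptors as prototoxins, had a median of -0.02 over 8 genes with 0 passing and 0 at an unadjusted p under 0.05. Its smallest p-values belonged to Ly6h (0.26, limma adjusted p = 0.739) and Lynx1 (-0.22, limma adjusted p = 0.879).

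Among 11 listed genes of the neuromuscular junction, not all of which cluster receptors, 0 passed in limma (median -0.09). At an unadjusted p under 0.05 there were 2 lower and 0 higher, against 6.31% and 4.14% of all probe sets. The 2 lower genes were Lrp4, the agrin receptor gene, at -0.85 (SE 0.26, limma adjusted p = 0.311), and Colq, the collagen tail of acetylcholinesterase, at -0.57 (SE 0.22, limma adjusted p = 0.426). Agrn, which encodes agrin itself, had means of 7.82 in both groups. Of 6 genes for acetylcholine synthesis, transport and breakdown, 0 passed and 1 was lower at an unadjusted p under 0.05. Bche, which encodes butyrylcholinesterase, had 4.78, 4.56 and 4.83 in FLAG-SMN IP and 6.15 and 6.20 in control IP. Its groups lay apart, with means of 4.72 and 6.17 and a log2 difference of -1.45 (SE 0.18, limma adjusted p = 0.0853). It passed without FLAG-SMN IP replicate 1, at -1.48, and in no other leave-one-out fit. Prima1, the membrane anchor of acetylcholinesterase, gave -0.52 (limma adjusted p = 0.543), while Ache itself, the enzyme, had means of 8.10 and 7.95.

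Receptors of other classes served as a comparison. The 5 muscarinic receptor genes, which encode the G protein-coupled acetylcholine receptors, had a median of 0.20 with 0 passing and 0 at an unadjusted p under 0.05. Chrm2 (0.31, limma adjusted p = 0.727) and Chrm5 (-0.25, limma adjusted p = 0.828) had the smallest p-values. Of 23 other Cys-loop receptor subunit genes 0 passed in limma, and the median was 0.10. At an unadjusted p under 0.05 there were 0 lower and 1 higher, against 6.31% and 4.14% of all probe sets. The gene at the unadjusted level was the serotonin receptor gene Htr3b (0.89, SE 0.35, limma adjusted p = 0.444), followed by the GABA-A receptor gene Gabrg1 (0.23, limma adjusted p = 0.787), which was dim at 2.66 to 2.96. Of 16 ionotropic glutamate receptor genes, 0 passed and 0 had an unadjusted p under 0.05 (median 0.04), led by Grik5 (-0.43, limma adjusted p = 0.528) and Grin2d (-0.28, limma adjusted p = 0.722). Most genes of these lists were dim: 3 of the 23 Cys-loop and 4 of the 16 glutamate receptor genes were above the presumed control medians on all arrays, against 4 of the 6 neuronal nicotinic genes.

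**Figure D4:**
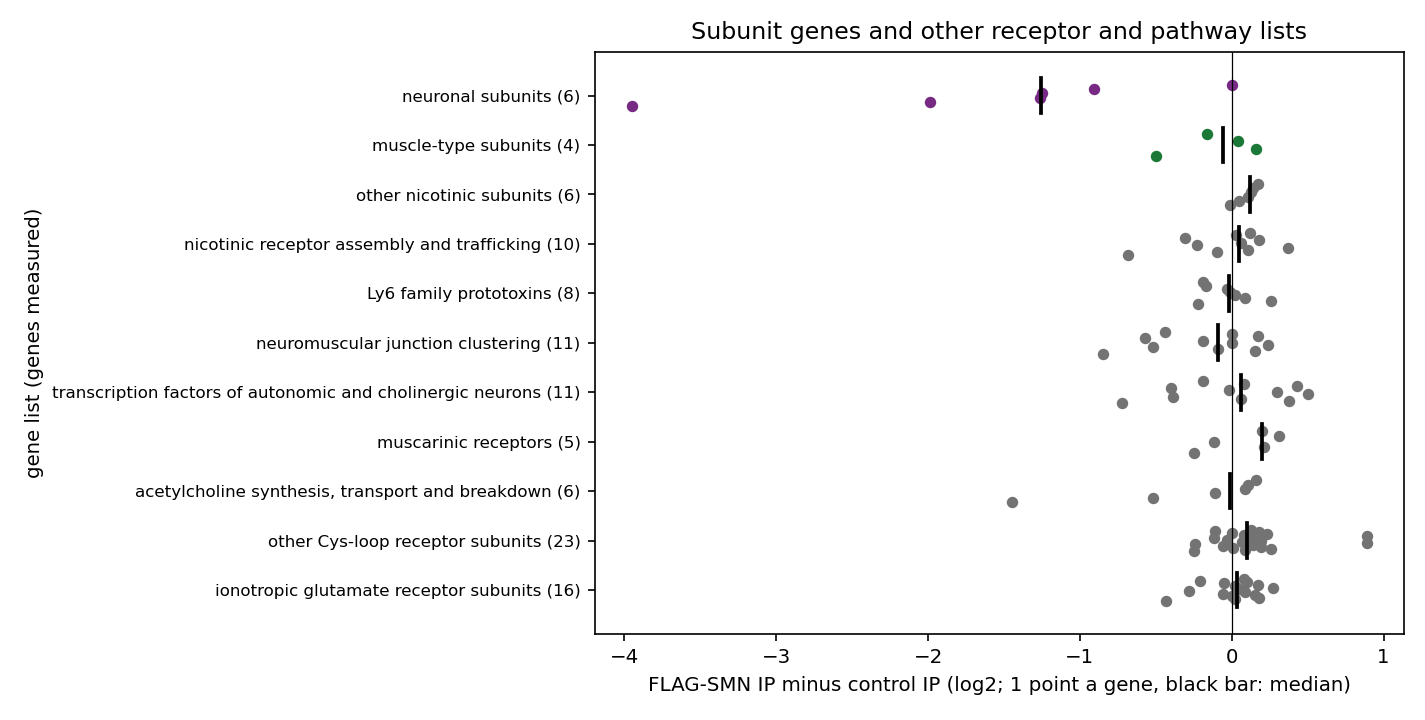
Log2 difference of each measured gene (FLAG-SMN IP minus control IP, horizontal axis) by gene list, with the number of genes measured in brackets and a black bar at the list median. The neuronal subunits have a median of -1.26, and the medians of the other lists plotted lie between -0.09 and 0.20; cell type marker lists, among them general neuronal markers with a median of -0.73, are not plotted.

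Transcription factor genes of autonomic and cholinergic neurons were spread around no difference, with a median of 0.06 over 11 measured genes, 0 passing in limma, and 1 higher but 0 lower with an unadjusted p under 0.05. Gata3 gave 0.50 (limma adjusted p = 0.469) and Isl1 -0.72 (limma adjusted p = 0.507). The differences of Phox2a and Hand2, given above by their means, were -0.19 and -0.02. In the list of noradrenergic neuroblastoma markers, which shares these factors, the enzyme genes Th (-1.94, limma adjusted p = 0.0957) and Dbh (-2.23, limma adjusted p = 0.11) had negative differences as well, and Ddc gave 0.76 (limma adjusted p = 0.228). Its summed log2 signal over 6 measured markers was 41.65 to 42.13 in FLAG-SMN IP and 44.14 to 45.87 in control IP. The median of the 6 was -0.10, and 2 were lower and 2 higher at an unadjusted p under 0.05. Over all probe sets, 6.31% were lower and 4.14% higher at that level. The 7 general neuronal markers had a median of -0.73. Groups did not overlap, with FLAG-SMN IP lower, at 4 of them, and 3 were at least 2-fold lower. Over all probe sets, those shares were 13.2% and 1.73%. At the unadjusted level 4 of the 7 were lower and 0 higher. Their sums were 50.19, 41.57 and 41.74 in FLAG-SMN IP replicates 1 to 3 and 50.57 and 49.88 in control IP. Replicate 1 of FLAG-SMN IP thus lay between the control arrays. The lowest was Snap25, a synaptic vesicle fusion gene, at -2.14 (limma adjusted p = 0.131), followed by Syp, a synaptic vesicle protein gene, at -1.56 (limma adjusted p = 0.134) and Map2, a dendritic microtubule protein gene, at -1.09 (limma adjusted p = 0.209). The 9 motor neuron markers had a median of 0.09 and 0 at that level in either direction, with sums of 49.05 to 52.95 against 51.41 to 51.87. Astrocyte, oligodendrocyte and Schwann cell, and macrophage markers had medians of 0.01, -0.03 and -0.02, and 0 of their 11 measured genes were at that level. The part of these markers in the subunit values was not tested.

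Profiles most like those of Chrna3 and Chrnb2 were sought over the 5 arrays among 19927 other genes, by the root mean square distance between log2 values centred on each gene's mean. Nearest to Chrna3 were Crabp1, a retinoic acid binding protein gene, at a distance of 0.61, and Lrrn3, a leucine-rich repeat membrane protein gene, and Car6, a secreted carbonic anhydrase gene, both at 0.64. Their log2 differences were -3.18, -2.87 and -2.67. The nearest other subunit to Chrna3 was Chrnb2, at 1.12. Such a distance largely restates the size of the group difference, with which the members were chosen, and nothing further is read from it. Nearest to Chrnb2 were Gpha2, a glycoprotein hormone subunit gene, at 0.06, Nfasc, an axonal adhesion gene, at 0.14, and F2rl2, a thrombin receptor family gene, at 0.16, with differences of -1.92, -1.99 and -1.83. Chrna7 was the nearest subunit to Chrnb2, at 0.44, followed by Chrnb4, at 0.56.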

How the data were processed

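RNA from 5 anti-FLAG precipitates was measured on single-colour Affymetrix arrays. The authors deposited log2 values; the submitters' processing notes name RMA, of which neither version nor settings are known here. RMA forces arrays toward a common distribution, so a general difference in recovered RNA is not visible. The table held 34760 probe sets from 1.28 to 14.15; 6573 with IDs below the lowest annotated ID were presumed controls and left out. Of the 28187 tested, 21640 carried 1 symbol, 1321 several and 5226 none. Groups came from sample titles. limma 3.58.1 in R 4.3.3 (lmFit, eBayes, 2-sided, no block) compared 3 with 2 arrays, adjusting by Benjamini-Hochberg over all 28187. The brightest probe set stood for a gene. The script was tested on simulated data, with 200 of 28187 probe sets changed in each draw. It recovered 21.5% of log2 changes of -1, 97% of -2 and 99.8% of -4, so many 2-fold changes would not pass. The simulated noise was independent between arrays and held no outlying array, so these shares do not carry over to the real arrays. There, Chrna3 (-3.95) and Chrnb2 (-1.99) did not pass in the main fit. The members and lists were chosen with earlier results of these data known. Named genes were all nicotinic subunits, the 2 of smallest p in each list and the nearest profiles; Agrn, Ache, Phox2a, Hand2 and the markers were added. By gene ID, 10 of 10 members matched RefSeq (GRCm38.p6). Alternatives were cyclic loess, centring on and restriction to brighter probe sets, trend and robust variance, the replicate block, leaving out each array, mean of probe sets and the whole table. Figures used matplotlib 3.10.9.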

Additional observations from a re-analysis of the deposited data

How the results depend on the processing

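The count of probe sets past the threshold, 9 in limma, was unstable. It was 0 under cyclic loess scaling, 0 with the whole table and 41 when centred on brighter probe sets. With brighter probe sets only it was 9, and with trend and robust variance 13. It ranged from 0 to 350 with each FLAG-SMN IP array left out. At an unadjusted p under 0.05 the main fit had 1779 lower and 1166 higher. With the replicate number as a block, the count was 0 and the neuronal minus muscle-type median was -1.31. After the mean of its own group was subtracted from each array, same-numbered arrays correlated at 0.13 (replicate 1) and -0.202 (replicate 2). The labels pair no arrays. Restriction to brighter probe sets moved the neuronal median to -1.63 and the muscle-type median to -0.50, because 5 of the 10 genes were left. With each array left out, the neuronal median ranged from -1.49 to -1.07. The muscle-type median ranged from -0.16 to -0.02. The mean of a gene's probe sets changed nothing for the members, which have 1 each. Dim signal limits Chrna5, Chrna4 and the muscle-type genes, Chrnb1 least among them.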

Other observations

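The 7 measured genes next to Chrna5, Chrnb4, Chrnb2, Chrna7 and Chrnb1 in the RefSeq annotation had log2 differences from -0.89 to 0.28, and 0 of the 7 passed in limma, with 1 at an unadjusted p under 0.05. Psma4, a proteasome gene beside Chrna5, had means of 9.21 in FLAG-SMN IP and 8.96 in control IP (log2 difference 0.25, SE 0.31, limma adjusted p = 0.914). Ube2q2, a ubiquitin-conjugating enzyme gene beside Chrnb4, gave -0.11 (SE 0.42, limma adjusted p = 0.987). Beside Chrnb2, the RNA-editing enzyme gene Adar gave -0.18 (limma adjusted p = 0.866) and Ube2q1 -0.89 (SE 0.26, limma adjusted p = 0.295). Otud7a, beside Chrna7, gave -0.16 (limma adjusted p = 0.943). Zbtb4, a transcription factor gene beside Chrnb1, gave -0.46 (limma adjusted p = 0.513), and Fgf11, a fibroblast growth factor family gene on its other side, 0.28 (limma adjusted p = 0.859). These members, with Chrna3, were those whose groups did not overlap. Beside the other members, Col20a1, next to Chrna4, was higher in FLAG-SMN IP (1.06, SE 0.30, limma adjusted p = 0.27). Wipf1 and Chn1 beside Chrna1, Prss56 beside Chrnd and Eif4e2 beside Chrng lay between -0.09 and 0.26.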
